A study of Mus musculus with 6 samples.

Results

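Cell-surface proteins are used to sort the mouse mammary gland into lineages, and 10 of the genes that encode them were followed here across sorted and unsorted mammary cells. Cd24a and Itgb1 encode CD24 and CD29, the proteins on which the cells had been sorted. Epcam, Cd44, Procr, Prom1, Kit, Cd14, Itga2 and Itgb3 encode further proteins used to isolate stem or progenitor cells. The genes were found by their symbol on the array, with Epcam under its older symbol Tacstd1, and had 17 of the 41174 non-control probes. Of the 27670 genes of the array, 24838 were tested, namely those with Cy5 signal well above background on 2 or more of the 6 arrays, and all 10 surface genes were among them.

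The study measured total RNA from mammary glands of virgin C57/B6 mice on 6 Agilent arrays with 2 colours. The groups were the P4 population (CD24+CD29hi, labelled as enriched for mammary stem cells, MaSC), the P5 population (CD24+CD29lo, labelled as luminal progenitor enriched) and the unsorted total epithelial cells of the gland (MEC), each from wild-type mice (WT) and from mice heterozygous for ∆Np63 (het). ∆Np63 is the form of the transcription factor p63 made in basal epithelial cells. Each of the 6 groups had 1 array, so no spread between animals is available, and the number of mice behind each sample is not given in the labels. The sample carried Cy5 on every array, and Universal Mouse Reference RNA, a mix of 11 cell lines, carried Cy3. Values are log2 of sample over reference, called log2 ratios below, and differences are differences of log2 ratios.

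The mammary epithelium is a bilayer of outer basal (myoepithelial) cells and inner luminal cells. Basal cells bind the basement membrane through integrins, heterodimers of an α and a β subunit, and CD29 is the integrin β1 subunit that most of those receptors share. CD24 and EPCAM are more abundant on luminal cells. Kit, a receptor tyrosine kinase, and Cd14, a co-receptor for bacterial lipopolysaccharide, are known on luminal progenitors, and Prom1 (prominin 1, CD133) on hormone-sensing luminal cells. In a bulk sample fewer cells of a type and less RNA per cell cannot be told apart.

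The array reports each gene through probes of 60 bases, and several results below differ between probes of the same gene. The following probes are shown because they carry those results: the Itgb1 and Prom1 probes that repeat the pattern of another probe, the single Epcam probe, and the Cd44 probe that did not follow the other Cd44 probes. Positions are those of the array's design on mouse build mm7, per the file headers. The Itgb1 probe lies at chr8:127331051-127331110 on the plus strand, the Epcam probe over chr17:85952074-85952902 on the plus strand, the Cd44 probe at chr2:102685050-102685109 on the minus strand, and the Prom1 probe at chr5:43326736-43326795 on the minus strand. The 60 bases of the Epcam probe cover 829 genomic bases, so that it joins separate stretches of the genome. Each of the 4 has at least 1 reading frame without a stop codon.
Itgb1 A_52_P351816: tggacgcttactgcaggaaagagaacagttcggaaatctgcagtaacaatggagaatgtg
Epcam A_52_P447944: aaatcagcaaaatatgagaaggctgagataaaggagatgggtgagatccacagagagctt
Cd44 A_51_P407053: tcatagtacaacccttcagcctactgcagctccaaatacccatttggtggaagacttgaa
Prom1 A_52_P402786: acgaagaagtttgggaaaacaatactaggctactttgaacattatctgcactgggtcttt
Of the Itgb3 probe that was used, only the last 30 bases are shown (bases 31 to 60), because they hold 6 repeats of GT (12 bases), printed in capitals, which the other Itgb3 probe does not hold.
Itgb3 A_51_P237893, bases 31 to 60: acaatttGTGTGTGTGTGTatgggtgggat

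Between 74.3% and 89.8% of the spots of an array were well above background in Cy5. All 4 sorted samples lay on slide 1, with WT P4, WT P5, het P4 and het P5 at positions 1 to 4. Both MEC samples lay on slide 2, with WT at position 1 and het at position 2. Genotype and position therefore cannot be told apart, and neither can slide and the difference of a sorted population from MEC. The highest local Cy3 background ranged from 51 on the het P5 array to 30168 on the WT P4 array. Replacing the local backgrounds that the scanner software marked as outliers changed some calls, directions and sizes. Both values are given for some of these results, and the rest are shown with the backgrounds as given only. Over 245 probes printed 10 times on each array, the SD of a single spot around its probe's mean was 0.1 in log2. For a difference between single spots on 2 arrays this spread between spots gives 0.142. It leaves out every error that the spots of an array share, and says nothing of animals.

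The lineage labels were first checked with basal and luminal marker lists that hold none of the 10 surface genes. Of 12 basal epithelial genes, 11 were higher in P4 than in P5 and none was lower, with a median difference of 3.66 against 0.04 over all genes. Of 12 luminal genes, 9 were lower in P4 and none was higher (median -2.84). Luminal progenitor genes were lower in P4 in 6 of 10 cases and hormone-sensing luminal genes in 8 of 10. Kit and Cd14 are among those 6 and Prom1 among those 8, so both lists are no separate check. Of 10 fibroblast genes 2 were higher in P4, and of 10 endothelial genes 1 was lower. Over all tested genes, 5.04% were called higher in P4 and 5.53% lower. None of the 10 macrophage, 8 mast cell and 8 lymphocyte genes passed the test between P4 and P5 in either direction, and the macrophage genes Mrc1 and Cd163 were not well above background on any sorted array.

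**Figure D1:**
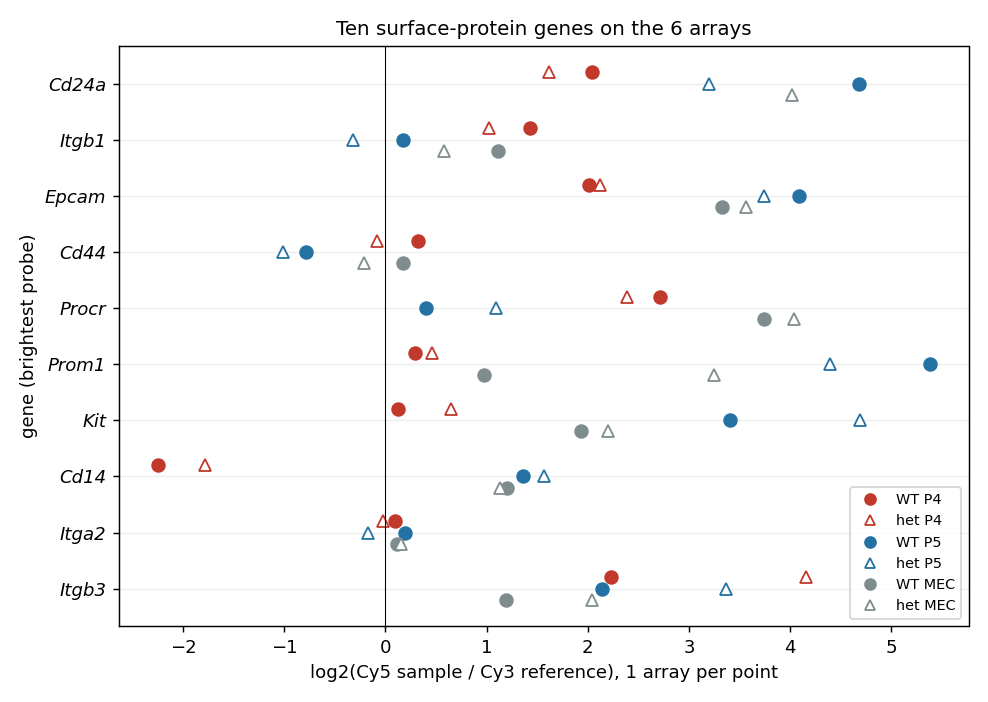
Log2 ratio of sample over reference (x axis) of the 10 genes (rows), 1 point per array, each gene by its brightest probe; filled circles are WT, open triangles het, and colours the populations. For 8 genes the P4 points lie wholly to one side of the P5 points, while those of Itga2 and Itgb3 do not separate. The share of all genes that separate in this way was not counted, so the 8 are a description only. Cd24a has no WT MEC point because its only spot there was marked as an outlier.

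P4 differed from P5 in 8 of the 10 surface genes. Itgb1, Cd44 and Procr were higher in P4, and Cd24a, Epcam, Prom1, Kit and Cd14 were lower, while Itga2 and Itgb3 did not pass the test. The comparison used limma with an additive fit of population and genotype over all 6 arrays, 2 residual degrees of freedom and Benjamini-Hochberg adjustment over all genes at a threshold of 0.05. By that rule 10.6% of all tested genes were called, 5.04% higher and 5.53% lower in P4, and 15% with outlier backgrounds replaced, where the same 3 and 5 surface genes were called. The calls rest on every one of the sorted arrays: without either P4 array (WT or het) or either P5 array (WT or het) limma's adjusted test called 0 of the 10 genes and 0 of all genes, and 8 or 9 of the 10 had an unadjusted p under 0.05, against 15.2% to 23.6% of all genes.

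Itgb1 RNA followed the CD29 gate. This is a check of the labels and no finding, since the cells were selected on the protein. The log2 ratio of Itgb1 was 1.43 in WT P4 and 1.02 in het P4, against 0.17 in WT P5 and -0.32 in het P5, and stood at 1.11 in WT MEC and 0.58 in het MEC. Both P4 arrays were above both P5 arrays, by 1.30 (SE 0.11, limma adjusted p = 0.011), a 2.47-fold difference, and the spread of its 10 spots within an array was at most an SD of 0.084. A separate probe, the Itgb1 sequence above, read 0.55 and -0.16 in WT and het P4 and -0.60 and -1.06 in WT and het P5, a difference of 1.02 (limma adjusted p = 0.0184 in a fit of all probes). One more Itgb1 probe, whose 60 bases span 5019 genomic bases and which lists another transcript accession, stayed near 0 on all 6 arrays, from -0.08 to 0.19, with a P4 minus P5 difference of -0.14 (limma adjusted p = 0.58), and was well above background on 5 arrays. Its raw Cy5 signal was only 57.9 to 98.6 over a local background of 33 to 40.5, and whether a difference could be detected at that signal was not tested.

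Cd24a, whose protein was also in the gate, went the other way. Its log2 ratio was 2.04 in WT P4 and 1.62 in het P4, 4.68 in WT P5, 3.20 in het P5 and 4.02 in het MEC. Both P4 arrays were the lowest, and P4 minus P5 was -2.11 (SE 0.33, limma adjusted p = 0.0471, over 5 arrays). The only Cd24a spot on the WT MEC array had been marked as an outlier and was left out; if kept it would read 2.14, and the difference would remain at -2.11 but miss the threshold (limma adjusted p = 0.201). The gate gave both populations as CD24+, so Cd24a is no check of the labels. Its RNA differed between P4 and P5 by -2.64 in WT and -1.58 in het arrays.

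Among the integrin partners of β1, α subunits were higher in P4 in 5 cases. Of 25 integrin subunit genes tested, 6 were called higher in P4, Itgb1 among them, and 1 lower, with a median of 0.45 against 0.04 over all genes. The shares called over all genes were 5.04% higher and 5.53% lower. The α9 gene Itga9 was higher by 2.17 (limma adjusted p = 0.0128), α5 (Itga5, a fibronectin receptor subunit) by 1.13 (0.0295 by the same test) and α6 (Itga6, a laminin receptor subunit that is also used to sort basal cells) by 0.95 (0.0471; 0.33 and 0.292 with the mean over probes). Itga11 was higher by 0.95 and Itga3 by 0.67. Itgb6 was the one called lower, at -0.91 (limma adjusted p = 0.0378; 0.0671 and so not called with outlier backgrounds replaced, where 8 subunits were called higher and 0 lower). Of 15 genes for proteins that join integrins to actin or signal from them, 6 were higher in P4 and none lower, among them Tns1 by 1.84, Lims2 by 1.76, Parva by 1.40 and Ilk, the integrin-linked kinase, by 1.17 (limma adjusted p between 0.00875 and 0.0194).

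Epcam, which encodes a homophilic adhesion protein of luminal epithelium, was read by the single probe shown above. The log2 ratio was 2.01 in WT P4, 2.12 in het P4, 4.09 in WT P5, 3.74 in het P5, 3.33 in WT MEC and 3.56 in het MEC. The P4 arrays were the lowest and the P5 arrays the highest, with MEC between them, and P4 was lower than P5, with a difference of -1.85 (SE 0.18, limma adjusted p = 0.0128). Of 10 genes of EPCAM, CD24 and their partners and relatives, 7 were lower in P4 and none higher, Epcam and Cd24a included, with a median of -1.64. Over all genes 5.53% were called lower and 5.04% higher. The CD24 ligand genes Siglecg (0.19) and Selp (0.13) and the tetraspanin gene Cd9 (-0.38) did not pass. The claudin Cldn7, which binds EPCAM, stood at -3.83 (limma adjusted p = 0.00743) and the protease inhibitor Spint1 at -2.71 (limma adjusted p = 0.0103).

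**Figure D2:**
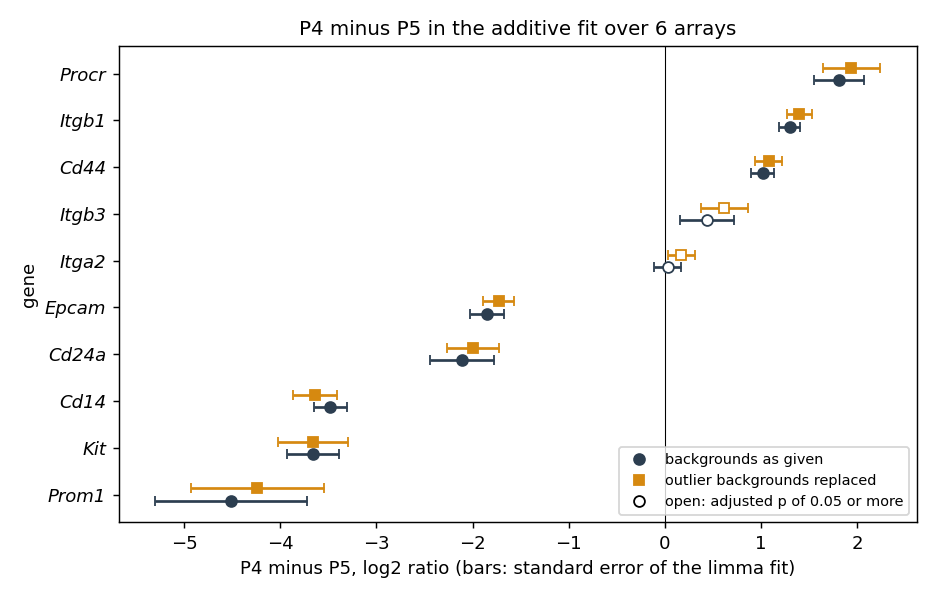
P4 minus P5 difference in log2 ratio (x axis) for each gene (rows), with the standard error of the limma fit as bars; circles use local backgrounds as given, squares have outlier backgrounds replaced, and open symbols missed an adjusted p of 0.05. Procr (1.81), Itgb1 (1.30) and Cd44 (1.02) lie to the right, Prom1 (-4.51), Kit (-3.66) and Cd14 (-3.48) farthest to the left, and both settings called the same 8 genes.

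Cd44 encodes the receptor for the matrix polymer hyaluronan. The probe used gave log2 ratios of 0.32 in WT P4, -0.08 in het P4, -0.78 in WT P5, -1.01 in het P5, 0.17 in WT MEC and -0.21 in het MEC. P5 was the lowest population, and P4 was higher by 1.02 (SE 0.12, limma adjusted p = 0.0174). A second Cd44 probe with 10 spots gave 1.08 (limma adjusted p = 0.0238 in a fit of all probes). The third, the Cd44 sequence printed above, is listed by the array for 2 RefSeq transcripts where the other Cd44 probes list 3. It read between 0.02 and 0.40 on all arrays, and its P4 minus P5 difference was -0.19 (limma adjusted p = 0.359). Its raw Cy5 signal was only 100.7 to 121.3 over a local background of 33 to 41, against 1331.3 to 10269.7 for the probe used. It was well above background on all arrays, and whether a difference could be detected at that signal was not tested.

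**Figure D3:**
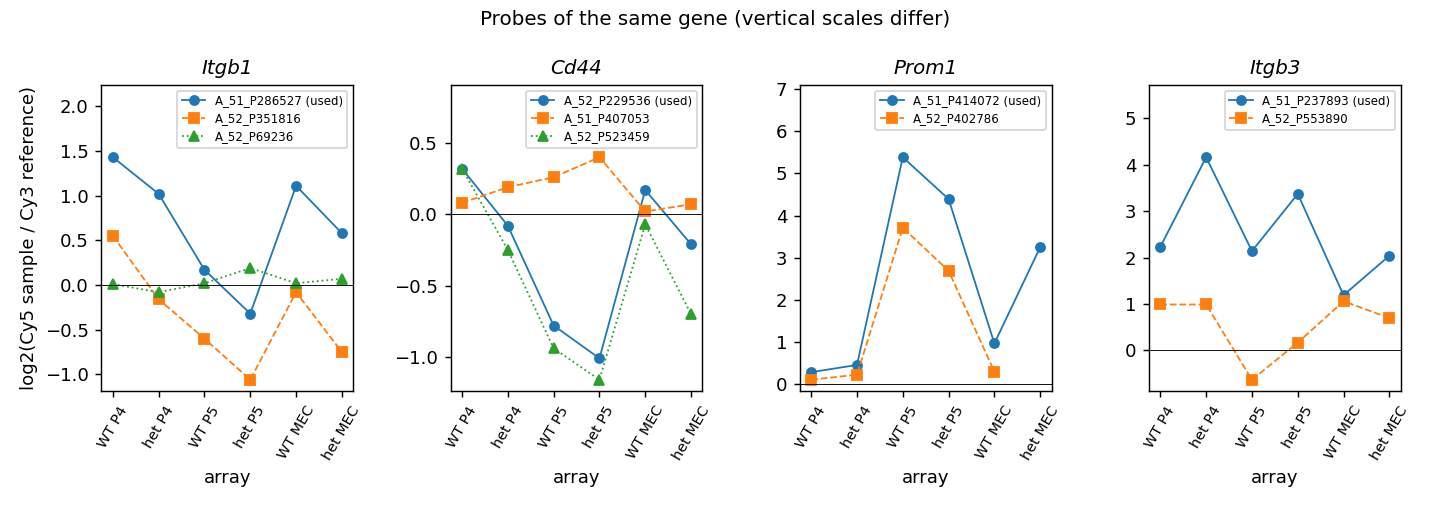
Log2 ratio (y axis, scales differ between panels) on each array (x axis) for every probe of Itgb1, Cd44, Prom1 and Itgb3; lines join the values of 1 probe. Each of Itgb1 and Cd44 has 1 probe that stays near 0 while the others fall from P4 to P5, the Prom1 probes rise together in P5, and the Itgb3 probes disagree on the het arrays.

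Of 14 genes on the Cd44 and hyaluronan list, 6 were called higher in P4, Cd44 among them, and 1 lower. The shares called over all genes were 5.04% higher and 5.53% lower. The median of the list was 0.79, and 7 of its genes did not pass. The synthase genes Has2 and Has1 stood 3.68 and 2.78 higher in P4 (limma adjusted p = 0.0366 and 0.00728), whereas Has3 was dim and differed by -0.06 (limma adjusted p = 0.832). The hyaluronidase genes Hyal2 and Hyal1 were higher by 1.73 and 1.31. Of the linkers that tie CD44 to actin, Msn (moesin) was higher by 1.57 (limma adjusted p = 0.0178) and Ezr (ezrin) lower, at -1.94 (limma adjusted p = 0.045), while Rdx (radixin) stood at 0.24 (limma adjusted p = 0.392).

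Procr encodes the endothelial protein C receptor, which presents protein C for activation and marks a subset of basal cells. It read 2.71 in WT P4, 2.39 in het P4, 0.40 in WT P5, 1.09 in het P5, 3.74 in WT MEC and 4.04 in het MEC. P4 was above P5 by 1.81 (SE 0.26, limma adjusted p = 0.0274), and both MEC arrays were above every sorted array. P5 was lower than MEC, with a difference of -3.15 (limma adjusted p = 0.0188). The P4 minus MEC difference of -1.34 missed the threshold (limma adjusted p = 0.0602) and passed it with outlier backgrounds replaced (-1.26, 0.0471). Endothelial markers moved with the MEC arrays: their summed Cy5 level was 25741 and 26269 in WT and het MEC against 4586 to 5670 in the sorted samples, and fibroblast markers summed to 375522 and 207802 against 20331 to 54542. All 10 endothelial genes were well above background on 5 arrays, and Tie1 was not on WT P4. The part of these cells in the Procr values was not tested.

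The other protein C genes split between the populations. Pros1, the cofactor protein S, was higher in P4 by 3.44 (limma adjusted p = 0.00732), and the thrombin receptor F2r by 2.30 (0.0255). Proc, protein C itself, was lower in P4, at -3.58 (limma adjusted p = 0.0376), with log2 ratios of 0.41 and 1.22 in WT and het P4 against 4.36 and 4.45 in P5. Thbd, thrombomodulin, stood at 1.51 (limma adjusted p = 0.0816). In all, 3 of the 8 genes on this list were higher, Procr among them, and 1 was lower, against 5.04% and 5.53% of all genes.

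Kit had a log2 ratio near 0 in P4, where both channels were dim. Its raw Cy5 signal was 93.5 in WT P4 and 106 in het P4, and its Cy3 signal was 61.6 to 120.5 over all arrays. Its log2 ratio was 0.13 in WT P4 and 0.65 in het P4, against 3.41 in WT P5 and 4.69 in het P5, with 1.93 in WT MEC and 2.20 in het MEC. The populations did not overlap, and P4 was lower than P5, with a difference of -3.66 (SE 0.27, limma adjusted p = 0.00908), or 12.7-fold. Over the other settings that leave out no array the Kit difference ranged from -4.13 to -3.13. The direction was reversed for its ligand: Kitl, stem cell factor, read 2.89 and 2.63 in WT and het P4 and 0.67 and 0.91 in WT and het P5, higher in P4 by 1.97 (SE 0.17, limma adjusted p = 0.0111). Lyn, a Src-family kinase that acts downstream of KIT, was lower in P4 (-2.07, limma adjusted p = 0.00691), and the phosphatase gene Ptpn11 was higher (0.92, limma adjusted p = 0.0264). Of the 12 genes of this list 2 were higher and 2 lower, Kit included, against 5.04% and 5.53% of all genes. Mast cells also express Kit, and the summed Cy5 level of 8 mast cell genes was 1938 and 2745 in WT and het P4 and 2230 and 2585 in WT and het P5, with Tpsab1 not well above background on WT P4 and WT P5 and Cpa3 not on WT P4.

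Cd14 showed the smallest adjusted p of the surface genes. It read -2.25 in WT P4 and -1.78 in het P4, against 1.36 in WT P5, 1.57 in het P5, 1.20 in WT MEC and 1.13 in het MEC. Both P4 arrays were below the reference and all other arrays above it. P4 was lower than P5, at -3.48 (SE 0.17, limma adjusted p = 0.00621), and lower than MEC, at -3.18 (limma adjusted p = 0.0202). Of its partners, Tlr4, the signalling receptor, stood at -1.03 (limma adjusted p = 0.0465; -0.56 and 0.0829 with the mean over probes, and -1.92 with the scanner ratio) and Ly96 (MD-2), which binds lipopolysaccharide with TLR4, at -1.08 (limma adjusted p = 0.0259). The adaptor Tirap was lower as well (-0.98), Tlr2 was higher (0.88, limma adjusted p = 0.0417), and Myd88 stood at 0.22 (limma adjusted p = 0.329). Macrophages carry Cd14 too. The summed Cy5 level of 10 macrophage genes was 4011 and 4567 in WT and het P4, 2952 and 3360 in WT and het P5, and 16496 and 10723 in WT and het MEC. The part of macrophages in the Cd14 values was not tested.

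Prom1 had the widest range of the 10 genes. It read 0.29 in WT P4, 0.46 in het P4, 5.38 in WT P5, 4.39 in het P5, 0.97 in WT MEC and 3.25 in het MEC. P4 was lower than P5, with a difference of -4.51 (SE 0.79, limma adjusted p = 0.0388). The second Prom1 probe, printed above, gave 0.11 and 0.23 in WT and het P4 and 3.71 and 2.69 in WT and het P5, a difference of -3.03 (limma adjusted p = 0.0277 in a fit of all probes). Both probes thus placed the P5 arrays far above the P4 arrays, while the size is uncertain. The reference RNA barely expressed Prom1: the Cy3 signal at the probe used was 45.4 to 78.2, with a median local background of 34 to 37.5, and it was well above background on 1 of 6 arrays. The scanner software's own ratios for it ran from 4.04 to 9.06. The other prominin gene, Prom2, stood at -2.56 in P4 against P5 (limma adjusted p = 0.0393), at -1.39 with outlier backgrounds replaced (0.0358) and at -0.47 with the scanner ratio (0.277). Its call was lost in 5 of 11 other settings. Ezr and Slc9a3r1, which organise microvilli, were lower in P4 as well. Thus 4 of the 7 genes of the prominin list were lower and none higher, against 5.53% and 5.04% of all genes.

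Itga2 encodes the collagen receptor subunit CD49b. Its brighter probe read 0.10 in WT P4, -0.02 in het P4, 0.19 in WT P5, -0.17 in het P5, 0.12 in WT MEC and 0.15 in het MEC, at raw Cy5 signals of 57 to 105.8. The P4 minus P5 difference was 0.03 (SE 0.14, limma adjusted p = 0.934). It was 0.17 with outlier backgrounds replaced (limma adjusted p = 0.471) and 0.51 by the scanner software's ratios (limma adjusted p = 0.264). The other Itga2 probe was well above background on only 2 arrays. Whether a difference in Itga2 could be detected at these signals was not tested.

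Itgb3 encodes the β3 subunit, CD61. The probe used read 2.23 in WT P4, 4.16 in het P4, 2.14 in WT P5, 3.37 in het P5, 1.19 in WT MEC and 2.04 in het MEC. P4 and P5 overlapped, with a difference of 0.44 (SE 0.28, limma adjusted p = 0.432). The second Itgb3 probe read 0.99 in both WT and het P4, -0.63 in WT P5, 0.17 in het P5, 1.06 in WT MEC and 0.70 in het MEC. By that probe the P4 arrays were above the P5 arrays, by 1.22 (limma adjusted p = 0.0773 in a fit of all probes), so the 2 probes order the arrays differently.

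Of 16 genes for further surface proteins of mammary stem and progenitor cells, 3 were higher in P4 and 8 lower, with a median of -1.17. Over all genes 5.04% were called higher and 5.53% lower. Mcam (CD146) was higher by 3.11 (limma adjusted p = 0.00621), Lgr5 by 2.63 (0.0265) and Itga6 by 0.95. Lower in P4 were Ly6d at -3.74, Cd200 at -3.39 and Ly6a, which encodes Sca-1, at -3.18 (limma adjusted p = 0.0266, 0.0273 and 0.0172).

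MEC arrays lay between or beyond the sorted arrays, depending on the gene. Against MEC, P4 was higher in Itgb3 by the probe used (1.58, limma adjusted p = 0.0497) and lower in Epcam (-1.38), Kit (-1.68) and Cd14 (-3.18), 4 of 10 genes where 6.85% of all genes were called, 2.75% higher and 4.1% lower. With outlier backgrounds replaced Cd24a (-2.61) and Procr were called lower as well, 6 of 10 against 17.9% of all genes. The second Itgb3 probe gave 0.11 in P4 against MEC (limma adjusted p = 0.875). P5 was higher than MEC in Kit (1.99, limma adjusted p = 0.0395) and lower in Itgb1 (-0.92), Cd44 (-0.88) and Procr (-3.15), 4 of 10 genes where 3.92% of all were called, 0.914% higher and 3.01% lower. The Kit call was lost with outlier backgrounds replaced (1.70, limma adjusted p = 0.0624), which left 3 of 10 against 6.14%. Without either P4 array (WT or het) or either P5 array (WT or het), limma called 0 of the 10 genes in either comparison, with 4 to 7 at an unadjusted p under 0.05, against 11.7% to 22.9% of all genes. These comparisons share the MEC and sorted arrays and are not independent of each other.

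The genotype comparison asks how the surface genes differ between het and WT mice. Over the 3 populations the additive limma fit called 0 of the 10 genes and 0% of all genes, with a smallest adjusted p of 0.206. At an unadjusted p under 0.05 there were 5 of the 10 genes and 5195 of all genes (20.9%). With outlier backgrounds replaced there were 5 and 3666 (14.8%). Itgb1 was lower in het than in WT in all 3 populations, by -0.40 in P4, -0.49 in P5 and -0.53 in MEC, with a mean of -0.47 (SE 0.09, limma adjusted p = 0.206). Its second probe gave a mean of -0.61 (limma adjusted p = 0.189 in a fit of all probes). Cd44 was lower by -0.40, -0.23 and -0.38, with a mean of -0.34 (SE 0.09, limma adjusted p = 0.206). Epcam differed by 0.11, -0.35 and 0.23, a mean of 0.00 (SE 0.15). With outlier backgrounds replaced the Epcam differences were -0.12, -0.38 and 0.09, a mean of -0.14 (SE 0.13). Het arrays always had a later position on the slide than their WT counterparts.

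Within a population, 1 array was set against 1, with no test, and genes at least 2-fold apart (a log2 difference of 1) were counted. In P4 Itgb3 was 2-fold higher in het and no other surface gene was 2-fold apart, where 6.3% of all genes were, 6.21% higher and 0.0847% lower. In P5 Itgb3 and Kit were higher and Cd24a was lower, 3 of 10 against 3.16% of all genes, 2.61% higher and 0.555% lower. With outlier backgrounds replaced Itgb3 was the only one higher there, and Cd24a and Prom1 were lower, against 3.27% of all genes in either direction. In MEC Prom1 was higher, 1 of 9 genes with a value against 2.71% of all genes, 2.02% higher and 0.69% lower. Kit differed by 0.52, 1.29 and 0.27 in P4, P5 and MEC, and by 0.20, 0.71 and -0.81 with outlier backgrounds replaced, so that neither the 2-fold difference in P5 nor the direction in MEC was stable. Cd24a was lower in het P5 than in WT P5, at -1.48, and at -1.51 with outlier backgrounds replaced. In P4 it differed by -0.42, and in MEC by 1.88 only if the marked spot of the WT array is kept.

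**Figure D4:**
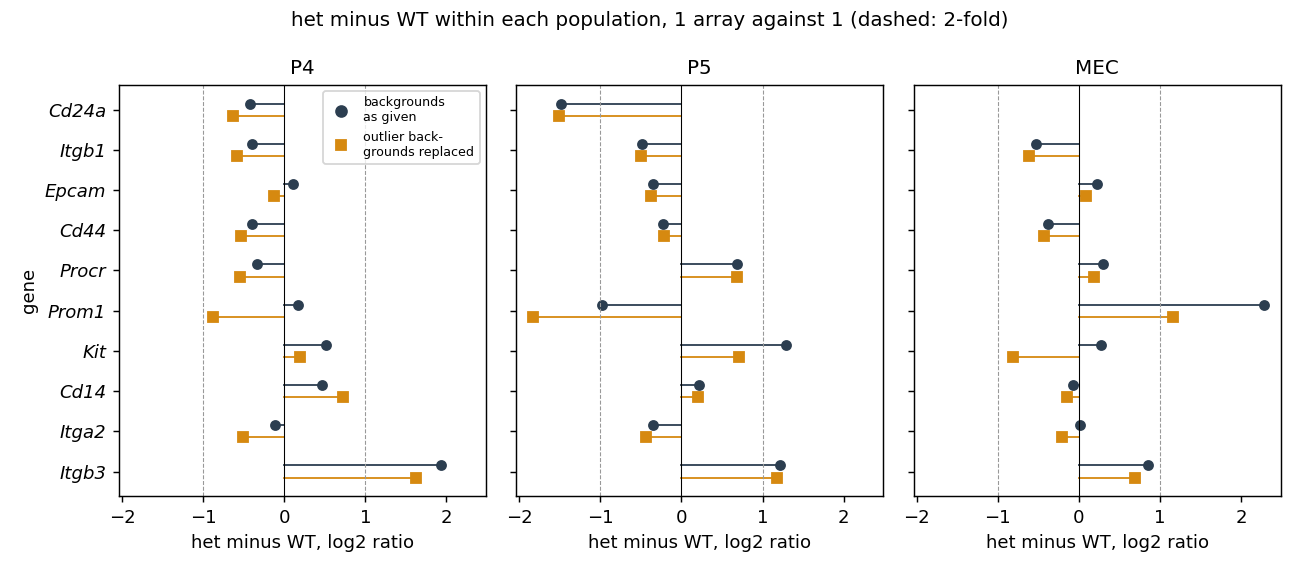
Het minus WT difference in log2 ratio (x axis) of each gene (rows) in P4, P5 and MEC, 1 array against 1 with no error estimate; circles use local backgrounds as given, squares have outlier backgrounds replaced, and dashed lines mark 2-fold. Itgb3 is higher in het in all 3 panels (1.93, 1.22 and 0.85), while Prom1 goes from -0.98 in P5 to 2.28 in MEC and both Prom1 and Kit move with the background setting.

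The genotype difference of Prom1 was 0.17 (P4), -0.98 (P5) and 2.28 (MEC). With outlier backgrounds replaced they were -0.88, -1.83 and 1.16, and in the Cy5 channel alone -0.40, -1.75 and 1.46. P5 and MEC were thus on opposite sides in these 3 settings, but the scanner software's ratios placed both higher in het, at 0.98 and 0.59. The raw Cy5 signal of this probe was 391.8 in WT MEC and 925.1 in het MEC, and the second probe's spot on het MEC had been marked as an outlier. The MEC arrays also differed in their luminal markers. The summed Cy5 level of 12 luminal genes was 508478 in WT MEC and 923682 in het MEC. For 10 hormone-sensing luminal genes, Prom1 included, the sum was 60226 and 86574. Their mean log2 ratio was 2.12 and 3.12, or 2.68 and 3.13 with outlier backgrounds replaced. The sum of 10 luminal progenitor genes went the other way, at 129981 in WT MEC and 115011 in het MEC. The fibroblast sum was 375522 and 207802. The part of cell composition in the Prom1 difference was not tested.

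Itgb3 was higher in het in all 3 populations by the probe used, with differences of 1.93, 1.22 and 0.85 and a mean of 1.33 (SE 0.23, limma adjusted p = 0.206). Under median centring these differences were only 0.38 in P4, 0.38 in P5 and 0.26 in MEC, none of them 2-fold. In a fit of the P4 and P5 arrays alone the mean was 1.57 (limma adjusted p = 0.0302), the only one of the 10 surface genes called there, where 3.44% of all genes were called, 829 higher and 25 lower. Leaving out either MEC array, WT or het, gives this same value. The second Itgb3 probe gave 0.00, 0.80 and -0.36, and a mean of 0.14 (limma adjusted p = 0.758 in a fit of all probes). The 2 probes thus both read higher in het P5, and only the probe used did so in P4 and MEC. Its Cy3 signal, from the same reference RNA on every array, was also lower on the het sorted arrays, at 1335.6 and 1330.5 in P4 and P5 against 1845.1 and 1861.2 in WT.

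The probe used for Itgb3 is the only one of the 17 that holds the run GTGTGTGTGT or its reverse complement ACACACACAC. The run was looked for after the values had been seen. It occurs in 14 of all 41174 probes (0.034%), and the reverse complement in 10 (0.0243%). The 13 other probes with the run, for 13 different genes, had median log2 ratios of 2.34 in WT P4, 3.71 in het P4, 2.18 in WT P5, 2.95 in het P5, 0.96 in WT MEC and 1.90 in het MEC, close to the 6 values of the Itgb3 probe. All 13 were higher in het P4 than in WT P4, by a median of 1.75, and 11 of them were at least 2-fold higher. Over all 36639 other tested probes the median was 0.05, with 56.6% higher and 4.69% at least 2-fold higher. In P5 the median was 0.98 and in MEC 0.90, with 12 and 13 of the 13 higher in het, against 55.3% and 52% of all probes. The 9 tested probes with ACACACACAC had medians of 2.97 (P4), 2.35 (P5) and 0.69 (MEC). With outlier backgrounds replaced the medians of the 13 were 1.45, 0.84 and 0.77. Whether the run accounts for the Itgb3 reading was not tested.

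**Figure D5:**
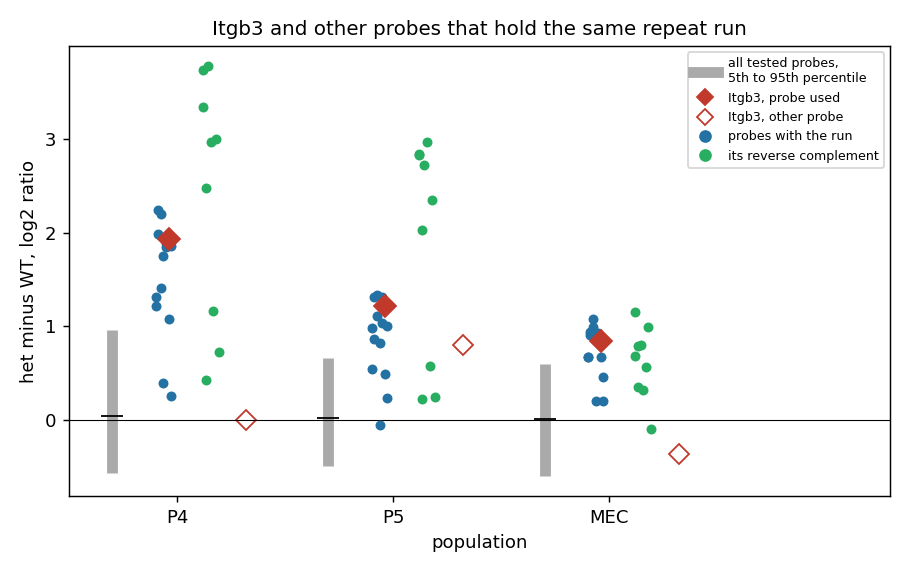
Het minus WT difference in log2 ratio (y axis) in the 3 populations (x axis) for both Itgb3 probes (diamonds) and for the tested probes of other genes that hold the same repeat run or its reverse complement (points); grey bars span the 5th to 95th percentile of all tested probes and black ticks their median. The Itgb3 probe used (1.93, 1.22 and 0.85) lies among the probes with the run, whose medians are 1.75, 0.98 and 0.90. The other Itgb3 probe lies below all of them in P4 (0.00) and MEC (-0.36) and within their range in P5 (0.80).

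For each surface gene the genes with the most similar pattern were sought among up to 20875 others that were well above background on all 6 arrays, by the root mean square difference of log2 ratios after each gene was centred on its own mean. Epcam was followed most closely by Fhod1 (0.06), Dusp16 (0.10) and Hsdl2 (0.12), and Cd44 by Pdpn (0.05), which encodes the mucin-like surface protein podoplanin, Tspyl4 (0.05) and Dek (0.06). Nearest to Procr were Lims2 (0.16), the integrin adaptor named above, Csf2rb2 (0.25) and Fbln5 (0.27). Nearest to Kit were Ceacam2 (0.32), Muc15 (0.33) and Kcnk5 (0.34), and to Cd14 Gpd1 (0.34), Esr1 (0.35), the oestrogen receptor, and Sdr42e1 (0.37). Prom1 had NAP027004-1 (0.19), Rassf6 (0.20) and Cyp3a25 (0.21), and Itgb1 had Nolc1 (0.09), BC051230 (0.11) and Usp31 (0.13). Cd24a, over 5 arrays, had AK149472 (0.11), LOC621324 (0.13) and Pfkfb3 (0.21). Itgb3 by the probe used had Stag2 (0.03), whose probe also holds GTGTGTGTGT, and TC1561961 and Erbb4 (0.08 each), whose probes do not. Itga2, which hardly varied (SD 0.13 over arrays), had 4930556L07Rik, NP378055 and Slc36a4 at 0.02 to 0.03. With 6 arrays and so many candidates, such closeness is a description only.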

How the data were processed

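Total RNA of 6 samples was hybridised against a common reference on 6 arrays. Spots were quantified by Agilent Feature Extraction 9.5.3.1, per the submitters' processing notes. Raw intensity in the deposited scanner files is a mean signal and a median local background per spot and colour. The same deposited files hold a log10 ratio (Cy5 over Cy3), which the software had already corrected for background and dye. The deposited series table holds log2 ratios that followed the scanner ratios (r between 0.988 and 0.999 across probes), with the sample over the reference.

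Here, intensities were corrected by normexp (offset 50) and loess within each array with limma 3.58.1 under R 4.3.3. Spots that the software had marked as outliers, 74 to 236 on an array, did not enter. Spots of 1 probe were averaged, and the brightest probe over the arrays in Cy5 stood for its gene. Genes whose probe was not well above the Cy5 background on 2 or more of the 6 arrays were not tested. Of 41174 probes, 22951 were named by RefSeq accession and 3109 by synonym. The additive limma fit of population and genotype left 2 residual degrees of freedom. Its p-values scale each population or genotype difference by the lack of additivity between 6 single arrays, which limma moderates over all genes. That error is not a spread between animals. Slide is absorbed by the population term. Figures were drawn with matplotlib 3.10.9.

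The 10 genes, the gene lists and the tests were chosen with earlier results of these data known. Named list genes are up to the 3 largest called differences in each direction, direct partners of the 10 genes, and the 3 genes nearest in pattern; Ilk, Hyal1, Msn, Rdx, Tirap and Myd88 fall outside this rule and were chosen after their values were seen. One gene that the rule names is not reported here. The fit was tested on simulated data. Alternatives were outlier local backgrounds replaced by the array's median, offset 0, the scanner ratio, the series table, median centring, Cy5 alone, other filters on dim probes, the mean over probes, the P4 and P5 arrays alone, and each array left out. Keeping marked spots and fitting every probe were added after the data were seen.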

Additional observations from a re-analysis of the deposited data

Results flagged for a closer look

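Genotype differences of opposite sign in 2 populations, at least 1 apart in log2, were found for Prom1 and Procr. For Prom1 the het minus WT difference was -0.98 in P5 and 2.28 in MEC, which are 3.26 apart, and 0.17 in P4, which is 1.16 from P5. With outlier backgrounds replaced Prom1 was lower in het in both P4 (-0.88) and P5 (-1.83). With an offset of 0 it was higher in het in both P5 (0.82) and MEC (3.8). For Procr it was -0.33 in P4 and 0.69 in P5, which are 1.01 apart, and -0.55 and 0.68 with outlier backgrounds replaced. Under median centring both Procr differences were negative, at -1.92 in P4 and -0.17 in P5. Each difference is 1 array against 1, and the difference between populations was not tested.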

How the results depend on the processing

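With 1 array per group, 2 residual degrees of freedom and no dye swap, only the additive fit gives an error. No paired analysis was possible because the labels give no replicate numbers and each group has 1 array. Of the fitted values of the 10 genes under other settings than leaving out an array, 361 kept direction and call, 23 lost the call, 17 gained it and 19 changed sign. The cause of the changes below was not tested, except where fewer arrays entered the fit.

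The count of called genes in P4 minus P5 went from 8 to 4 under median centring, which lost Itgb1 (limma adjusted p = 0.0572), Cd44 (0.132), Procr (0.103) and Prom1 (0.0528). In P4 minus MEC it went from 4 to 7 under median centring and to 2 without a filter on dim probes or with the mean over probes. In P5 minus MEC it went from 4 to 2 with the scanner ratio, the series table or the mean over probes. For genotype over populations it went from 0 to 5 under median centring, all lower in het, and to 1 with the P4 and P5 arrays alone. Median centring moved the median of all genes to -0.23 in P4 minus MEC, -0.35 in P5 minus MEC and -0.21 for genotype. It gave 330 higher and 6693 lower genes, 447 and 7829, and 701 and 7156, respectively. Over the settings that leave out no array, all-gene calls ranged from 904 to 4642 in P4 minus P5 (2625 as reported), from 1149 to 7023 in P4 minus MEC (1701) and from 846 to 8276 in P5 minus MEC (974), and from 0 to 7857 for genotype. The 2-fold count in P4 went from 1 to 3 with the scanner ratio or the series table, 6 under median centring and 0 with the mean over probes. In MEC it went from 1 to 2 with offset 0 or marked spots kept, 3 under median centring and 0 with the scanner ratio or the series table.

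Of the 34 list genes followed over settings, 16 lost their P4 minus P5 call under median centring, 6 with the mean over probes, 4 each with Cy5 alone, the scanner ratio and the series table, and 3 without a filter. Itgb6 lost it in 6 of 11 settings, Itga3 and Prom2 in 5, and Ezr, Itga6, Tlr4 and Tlr2 in 3.

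Leaving out 1 array, the called genes ranged from 0 to 8 in P4 minus P5, 0 to 6 in P4 minus MEC, 0 to 5 in P5 minus MEC and 0 to 1 for genotype. Cd24a in P4 minus P5 also missed the threshold with Cy5 alone (limma adjusted p = 0.0511), without a filter (0.0583) and with the mean over probes (0.0528), and Prom1 with the mean over probes (0.0775).

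Signs changed under median centring for P4 minus MEC in Itgb1 (-0.87), Cd44 (-1.19) and Itga2 (0.16), for P5 minus MEC in Epcam (-0.87), Cd14 (-1.03), Itga2 (0.16) and Itgb3 (-0.06), for genotype in Procr (-0.88), Cd14 (-0.84) and Itga2 (0.13), and for Itga2 in P4 minus P5 (-0.01). The Prom1 genotype mean became -0.52 with outlier backgrounds replaced, -0.23 in Cy5 alone and -0.41 with the P4 and P5 arrays alone, and ranged from -0.41 (without either MEC array) to 1.23 with 1 array left out. Itga2 became 0.34 in P4 minus MEC with the scanner ratio or the series table and with 1 array left out ranged from -0.22 to 0.03 there (highest without het MEC). In P4 minus P5 it was -0.04 with the mean over probes and ranged from -0.12 (without het P5) to 0.18 with 1 array left out, and in P5 minus MEC from -0.28 to 0.03 (without het P5), with 0 without het MEC. Cd44 in P4 minus MEC was -0.05 in Cy5 alone. Cd24a in P5 minus MEC was 0.86 with the marked spot kept, and ranged from -0.83 to 0.24 (without het P5). Without WT P5 or het P5 the genotype mean was 0.17 for Epcam and -0.01 for Procr, the lowest of a range up to 0.49. Itgb3 in P4 minus P5 ranged from -0.01 (without het P4) to 0.88. Has3 was 0.06 with the scanner ratio or the series table and ranged from -0.13 to 0.01 (without het P4) with 1 array left out.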
